A study of Rattus norvegicus with 15 samples.

Results

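The 49 genes described here carry signals of the bone morphogenetic proteins (BMPs), the transforming growth factors beta (TGF-beta) and the activins. They were chosen by symbol, as 10 BMP and GDF ligands, 3 TGF-beta ligands, 3 activin and inhibin subunits, 11 receptors, 6 receptor-regulated and common Smads, 3 feedback inhibitors, 5 secreted antagonists and follistatins, 4 Id genes and 4 latent TGF-beta binding proteins. All 49 were found, once each, among the 22468 genes of the count table, and all 49 passed the low-count filter that left 17657 genes to test. RNA-seq of bone from female Sprague-Dawley rats was compared in 5 groups of 3 libraries. YJZYT, YJT and SYT rats were ovariectomized and are known otherwise by these labels alone. Model rats were ovariectomized and carry the condition label osteoporosis. Blank rats carry the treatment label none. The series concerns Zhuanggu Zhitong Capsule in ovariectomized rats, but no label ties the capsule to a group. Without a sham-operated group in the labels, the surgery itself cannot be told apart from ovarian loss, and the bone sampled, the age of the rats and the time after surgery are not given.

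The ligands of this family bind pairs of type I and type II serine/threonine kinase receptors. BMP receptors phosphorylate Smad1, Smad5 and Smad9, TGF-beta and activin receptors phosphorylate Smad2 and Smad3, and both sets enter the nucleus with Smad4. In bone, BMPs are known for driving osteoblast differentiation, TGF-beta is stored in the matrix bound to latent binding proteins and released on resorption, and Id genes, Smad6, Smad7 and Bambi are induced by the signal.

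Promoters of 4 genes that the pathway is known to induce are shown because their messages are the usual transcript readouts of Smad signals. They run from 250 bases before to 50 bases after the annotated start, on the strand of the gene, in the RefSeq GRCr8 assembly: Id1 at chr3:161671314-161671613 and Id3 at chr5:153656041-153656340, both on the plus strand, Smad7 at chr18:71263258-71263557 on the plus strand, and Bambi at chr17:58820954-58821253 on the minus strand. Capitals mark GGCGCC, a GC-rich Smad element that reads the same on both strands.
Id1: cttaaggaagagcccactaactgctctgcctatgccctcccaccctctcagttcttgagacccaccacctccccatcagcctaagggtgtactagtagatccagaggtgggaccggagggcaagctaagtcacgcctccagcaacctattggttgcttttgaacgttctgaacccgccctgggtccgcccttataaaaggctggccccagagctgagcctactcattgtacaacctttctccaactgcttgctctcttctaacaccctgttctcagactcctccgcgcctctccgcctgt
Id3: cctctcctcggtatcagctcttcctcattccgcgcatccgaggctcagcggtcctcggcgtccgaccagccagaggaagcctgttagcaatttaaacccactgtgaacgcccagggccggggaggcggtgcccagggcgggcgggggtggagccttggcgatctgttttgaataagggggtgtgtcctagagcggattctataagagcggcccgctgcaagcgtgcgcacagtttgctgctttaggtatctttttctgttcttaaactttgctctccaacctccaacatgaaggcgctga
Smad7: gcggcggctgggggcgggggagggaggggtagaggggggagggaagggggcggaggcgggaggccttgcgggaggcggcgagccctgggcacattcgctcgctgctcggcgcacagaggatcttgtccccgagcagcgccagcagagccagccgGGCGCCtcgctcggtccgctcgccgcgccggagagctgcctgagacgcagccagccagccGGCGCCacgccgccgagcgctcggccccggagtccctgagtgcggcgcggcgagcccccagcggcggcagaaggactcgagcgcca
Bambi: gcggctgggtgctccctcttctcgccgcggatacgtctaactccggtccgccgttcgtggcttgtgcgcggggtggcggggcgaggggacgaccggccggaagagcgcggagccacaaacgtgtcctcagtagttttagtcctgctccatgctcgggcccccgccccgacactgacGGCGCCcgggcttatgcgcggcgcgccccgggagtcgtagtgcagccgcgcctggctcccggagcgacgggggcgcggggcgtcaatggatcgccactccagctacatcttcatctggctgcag
The Smad7 window held 2 matches and the Bambi window 1, while these letters are not in the Id1 and Id3 windows. GGCGCC was present in 17 of the 41 members matched in the promoter table (41.5%), against 14.1% of 21851 protein-coding promoters and 11.0% of all 33469 promoters. The members' promoters were also richer in G and C, with a median of 65% against 55% in protein-coding promoters and 51.7% in all promoters. GTCTAGAC, the palindromic Smad box, which also reads the same on both strands, was in 0 of 41 member promoters, 0.165% of protein-coding promoters and 0.197% of all promoters. A match is a description of letters, not a measured binding site.

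The 15 libraries held 64472700 to 74255667 counts each. The biological coefficient of variation across all genes tested was 42.7%. Nothing in the labels says that the libraries of a group came from separate animals, and p-values then measure only the spread between these libraries, which may be technical. The osteoblast list marked the tissue as bone in every library: 8 of its 9 markers were in the table, and their summed level ran between 1130 FPKM in YJT replicate 3 and 21134 FPKM in SYT replicate 3. YJT replicate 3 and YJZYT replicate 3, at 1563 FPKM, stood below all other libraries on this list. For comparisons that touch them, the counts of members below 0 are also given without them, as are some correlations. Most named fold changes, p-values, shares and ranges are not.

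Levels are the deposited FPKM (fragments scaled to transcript length and sequencing depth), which are per length and so can be set beside each other between genes. Of the 49 members, 43 averaged at least 1 FPKM over the 15 libraries and 11 averaged at least 10 FPKM. Bmp7, Gdf5, Inhbb, Bmpr1b, Acvr2b and Nog averaged less than 1 FPKM. In bulk bone, fewer cells of a type and less RNA per cell cannot be told apart, and this holds for every level and difference given here.

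**Figure D1:**
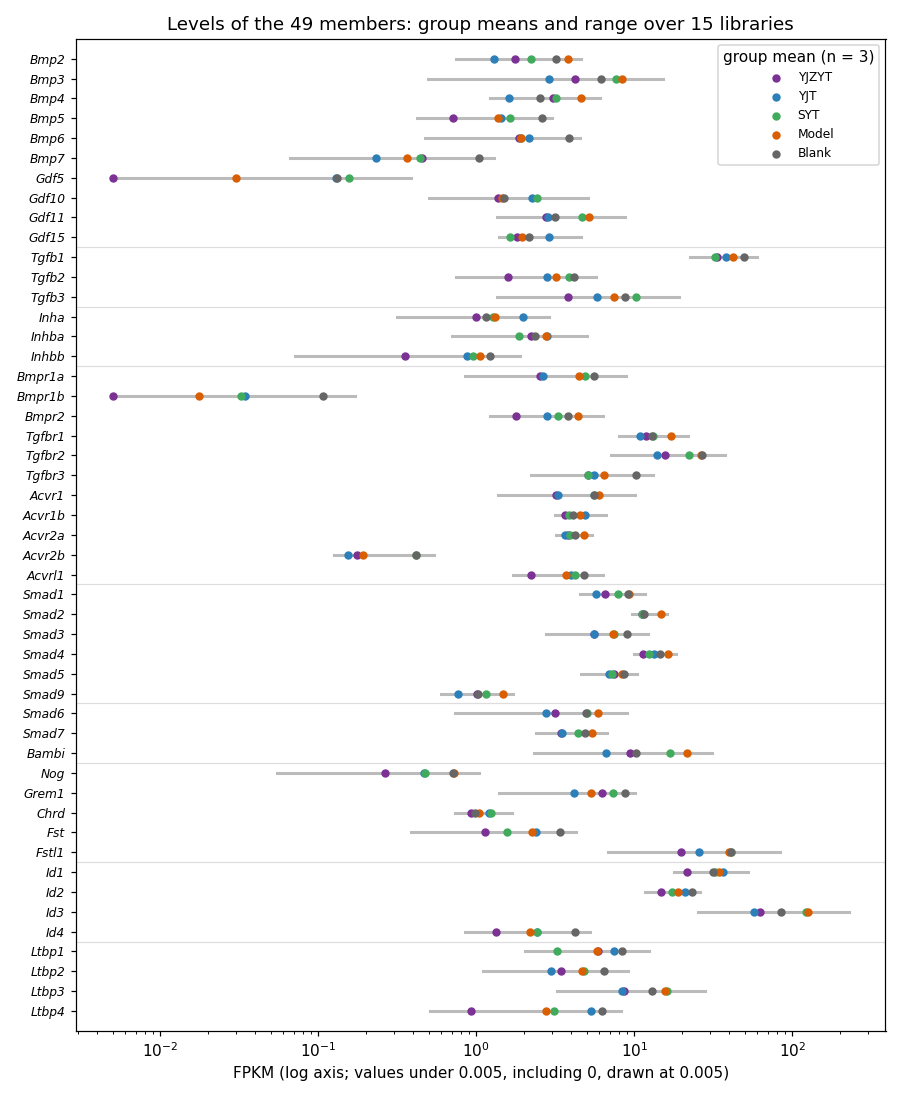
FPKM of the 49 members (log axis), ordered by role, with a coloured point at the mean of each group (n = 3) and a grey line over the range of the 15 libraries. Id3, Tgfb1, Fstl1 and Id1 lie farthest to the right, and Gdf5 and Bmpr1b farthest to the left, with libraries at 0 drawn at the edge of the range.

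The BMP and GDF ligands were expressed at low levels. Bmp3, an antagonist-like BMP abundant in bone, had the highest mean of the 10, at 6.84, 3.93 and 1.9 FPKM in YJZYT, 5.08, 3.1 and 0.496 in YJT, 3.66, 3.9 and 15.3 in SYT, 7.35, 6.71 and 11.1 in Model, and 3.51, 8.42 and 6.44 in Blank. Gdf11, a ligand of activin receptors, had 3.86, 3.13 and 1.35 FPKM in YJZYT, 4.86, 2.18 and 1.46 in YJT, 2.76, 2.55 and 8.67 in SYT, 3.39, 5.82 and 6.3 in Model, and 2.55, 3.43 and 3.41 in Blank. Bmp3 was lowest in YJT replicate 3 and highest in SYT replicate 3, a 30.8-fold ratio that was the widest of the 43 members with a mean of at least 1 FPKM. Its YJT libraries all lay below its Model libraries, and every other pair of groups overlapped for Bmp3, as did all pairs for Gdf11. The bone-inducing ligands Bmp2, Bmp4 and Bmp6 spanned 0.743 to 4.62 FPKM, 1.23 to 6.04 FPKM and 0.473 to 4.56 FPKM over the 15 libraries. Bmp5, which shapes the skeleton in mice, spanned 0.421 to 2.996 FPKM, Bmp7 0.0659 to 1.29 FPKM, Gdf10 0.503 to 5.11 FPKM and the stress-induced Gdf15 1.38 to 4.57 FPKM. Gdf5, a joint ligand, was at 0 in 7 libraries and reached 0.386 FPKM at most.

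Tgfb1, the TGF-beta isoform stored in bone matrix, was the second most abundant member, at 38.5, 31.3 and 29.7 FPKM in YJZYT, 33.8, 25.4 and 55.4 in YJT, 22.4, 34.6 and 40.8 in SYT, 59.4, 27.7 and 39.9 in Model, and 58, 36.1 and 53.5 in Blank. Tgfb3 had 4.68, 5.31 and 1.36 FPKM in YJZYT, 10.1, 4.76 and 2.5 in YJT, 4.05, 7.75 and 19.1 in SYT, 6.53, 6.01 and 9.86 in Model, and 6.11, 12.1 and 8.02 in Blank, and Tgfb2 spanned 0.744 to 5.76 FPKM. Tgfb1 varied 2.65-fold between its lowest and highest library, against 14.1-fold for Tgfb3. Tgfb1 made up between 62.2% and 93.4% of the summed FPKM of the 3 isoforms, lowest in SYT replicate 3 and highest in YJZYT replicate 3. The Tgfb1 values of all 5 groups overlapped.

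The activin and inhibin subunits were low. Inhba, the beta-A subunit that forms activin A, had 1.69, 1.6 and 3.37 FPKM in YJZYT, 1.64, 1.77 and 4.99 in YJT, 3.1, 1.75 and 0.703 in SYT, 4.61, 1.87 and 1.81 in Model, and 3.09, 1.44 and 2.56 in Blank. Inha, the alpha subunit that turns an activin into an inhibin, had 1.55, 0.314 and 1.11 FPKM in YJZYT, 2.9, 1.62 and 1.36 in YJT, 1.85, 1.15 and 0.851 in SYT, 1.57, 1.09 and 1.31 in Model, and 0.95, 1.63 and 0.866 in Blank. Inhba was lowest in SYT replicate 3 and highest in YJT replicate 3. Inhbb spanned 0.0711 to 1.88 FPKM.

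In FPKM, Tgfbr2 and Tgfbr1 averaged more than any other receptor. Tgfbr2, the type II TGF-beta receptor, had 19.8, 20.2 and 7.16 FPKM in YJZYT, 20.1, 9.89 and 11.7 in YJT, 9.11, 24.6 and 32.8 in SYT, 29.3, 12.4 and 37.5 in Model, and 24, 27.3 and 29.1 in Blank. Tgfbr1, its type I partner, had 13, 14.3 and 8.03 FPKM in YJZYT, 13, 8.25 and 11.2 in YJT, 10.5, 13.3 and 15.5 in SYT, 16.3, 13.1 and 21.7 in Model, and 11.2, 14.2 and 13.6 in Blank. The type I BMP receptor Bmpr1a had 4.19, 2.51 and 0.844 FPKM in YJZYT, 5.14, 1.81 and 1.03 in YJT, 1.45, 4.4 and 8.86 in SYT, 4.75, 2.72 and 5.9 in Model, and 4.72, 6.53 and 5.39 in Blank. Bmpr1a had the widest ratio of the receptors with a mean of at least 1 FPKM, at 10.5-fold, and both Bmpr1a and Tgfbr2 were lowest in YJZYT replicate 3. The co-receptor Tgfbr3 spanned 2.22 to 13.2 FPKM, the BMP type I receptor Acvr1 1.37 to 10.1 FPKM, the endothelial receptor Acvrl1 1.71 to 6.3 FPKM, and the type II receptor Bmpr2 1.22 to 6.38 FPKM. The activin receptors Acvr1b and Acvr2a were among the steadiest members, at 3.16 to 6.61 FPKM and 3.21 to 5.42 FPKM. Bmpr1b was at 0 in 7 libraries and reached 0.171 FPKM at most, and Acvr2b, a type II activin receptor, spanned 0.125 to 0.536 FPKM.

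Smad2 and Smad4 were among the steadiest members. Smad4, the common partner, had 11.8, 12 and 10.3 FPKM in YJZYT, 13.4, 10.2 and 16.3 in YJT, 9.97, 13.1 and 14.1 in SYT, 18.3, 13.3 and 17.4 in Model, and 15.6, 13.3 and 14.6 in Blank. Smad2 had 10.9, 12 and 10.7 FPKM in YJZYT, 11.8, 9.68 and 12.7 in YJT, 12.8, 10.1 and 10.8 in SYT, 13.2, 16.1 and 14.6 in Model, and 11.9, 10.7 and 12.1 in Blank. Smad3, which like Smad2 carries the TGF-beta and activin signal, had 8.005, 5.93 and 2.75 FPKM in YJZYT, 7.36, 5.08 and 4.37 in YJT, 4.04, 6.93 and 11.5 in SYT, 6.46, 5.32 and 10.1 in Model, and 6.83, 12.1 and 8.17 in Blank. Highest over lowest library was 1.83 for Smad4, 1.67 for Smad2, the narrowest of the 43, and 4.41 for Smad3. In FPKM, which are not TMM-scaled, all Smad2 values of YJZYT, YJT, SYT and Blank lay below the lowest Model value. In TMM-scaled CPM (counts relative to the scaled library total), only Blank lay below Model throughout. There YJZYT replicate 2 (40.5), YJT replicate 1 (40.4) and SYT replicate 1 (52.9) lay above Model replicate 1 (39.9). The BMP-regulated Smad1, Smad5 and Smad9 spanned 4.54 to 11.7 FPKM, 4.62 to 10.4 FPKM and 0.594 to 1.71 FPKM.

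Feedback inhibitors and secreted antagonists dampen the signal in and outside the cell. Bambi, a receptor decoy without a kinase domain, had 16.5, 8.04 and 3.51 FPKM in YJZYT, 10.6, 7.05 and 2.33 in YJT, 9.99, 10.1 and 30.8 in SYT, 8.81, 29 and 26.5 in Model, and 5.09, 16.2 and 9.38 in Blank. Smad6, which blocks BMP-regulated Smads, had 5.08, 3.05 and 1.3 FPKM in YJZYT, 4.73, 2.8 and 0.73 in YJT, 2.71, 3.42 and 8.99 in SYT, 4.68, 7.22 and 5.88 in Model, and 4.44, 4.88 and 5.58 in Blank. Both were lowest in YJT replicate 3 and highest in SYT replicate 3, and Smad7, which blocks TGF-beta and BMP receptors, spanned 2.4 to 6.74 FPKM. Fstl1, a secreted follistatin-like glycoprotein, had 29.2, 23.5 and 6.83 FPKM in YJZYT, 47.9, 16.3 and 12.5 in YJT, 15.6, 24 and 83.2 in SYT, 30.7, 32.4 and 56 in Model, and 31.3, 50.5 and 40.4 in Blank. Grem1, a BMP antagonist, had 6.43, 7.8 and 4.5 FPKM in YJZYT, 8.95, 1.38 and 2.07 in YJT, 2.38, 10.1 and 9.45 in SYT, 6.41, 5.67 and 3.78 in Model, and 10.1, 8.2 and 7.9 in Blank. Fstl1 peaked in SYT replicate 3 and Grem1 in SYT replicate 2, and the BMP traps Nog and Chrd and the activin trap Fst spanned 0.055 to 1.05 FPKM, 0.731 to 1.68 FPKM and 0.384 to 4.27 FPKM.

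The Id genes, direct targets of BMP signals that block basic helix-loop-helix factors, held the most abundant member. Id3 had 94.6, 67.5 and 25.4 FPKM in YJZYT, 96.4, 49.5 and 26.1 in YJT, 67.6, 73.1 and 227 in SYT, 67.4, 153 and 159 in Model, and 52.9, 118 and 83.3 in Blank. Id1 had 26.2, 17.9 and 20.3 FPKM in YJZYT, 52.6, 30.6 and 26.8 in YJT, 37.3, 26.3 and 33 in SYT, 35.1, 35.9 and 32.2 in Model, and 29.4, 33.7 and 31.4 in Blank. Id3 spanned an 8.95-fold range and Id1 a 2.93-fold range, so that the share of Id3 in the summed FPKM of the 4 Id genes ran between 32.7% in YJT replicate 3 and 82.9% in SYT replicate 3. Id2 spanned 11.6 to 26 FPKM, and Id4 0.845 to 5.27 FPKM.

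The latent binding proteins, grouped here by name, include members that tether TGF-beta to the matrix. Ltbp3, which is needed for normal bone in mice, had 13.7, 8.68 and 3.22 FPKM in YJZYT, 14.4, 7.25 and 3.4 in YJT, 6.23, 13.7 and 28.1 in SYT, 13.7, 13.4 and 19.6 in Model, and 9.73, 15.5 and 13.7 in Blank. Ltbp1, also known in platelets, had 6.02, 4.76 and 7.01 FPKM in YJZYT, 4.33, 5.47 and 12.4 in YJT, 2.02, 5.14 and 2.57 in SYT, 9.6, 3.34 and 4.37 in Model, and 9.92, 6.59 and 8.53 in Blank. Ltbp4, typical of elastic tissue such as lung and muscle, had 1.39, 0.513 and 0.887 FPKM in YJZYT, 8.25, 2.45 and 5.24 in YJT, 1.25, 4.65 and 3.46 in SYT, 2.82, 0.752 and 4.68 in Model, and 7.44, 4.72 and 6.51 in Blank. Ltbp3 was highest in SYT replicate 3, while Ltbp1 was highest in YJT replicate 3 and Ltbp4 in YJT replicate 1. Ltbp1 gave 56.4% of the summed FPKM of the 4 genes in YJZYT replicate 3 and 5.94% in SYT replicate 3. Ltbp4 gave 5.14% ± 2.31 of it in YJZYT and 21.0% ± 5.63 in YJT (SD, n = 3 each), and no YJZYT library reached the lowest YJT library. Ltbp2 spanned 1.1 to 9.12 FPKM.

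The members varied more between libraries than the average gene did. Highest over lowest library had a median of 6.22 over the 43 members, against 2.45 over 13002 genes with a mean of at least 1 FPKM and no library at 0. Of the 43, 17 (39.5%) were lowest in YJZYT replicate 3, against 15.0% of the 13002 genes, and 17 (39.5%) were highest in SYT replicate 3, against 11.3%. YJT replicate 3 was the lowest for 6 more, so 23 members (53.5%) had their lowest value in 1 of the 2 libraries with the least osteoblast RNA, against 19.2% of the 13002 genes. SYT replicate 1 was lowest for 8 (18.6%), against 18.4%. Neither YJZYT replicate 1 nor YJT replicate 1, from the same groups, was the lowest library for any of the 43, against 1.0% and 5.7% of the 13002 genes.

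**Figure D2:**
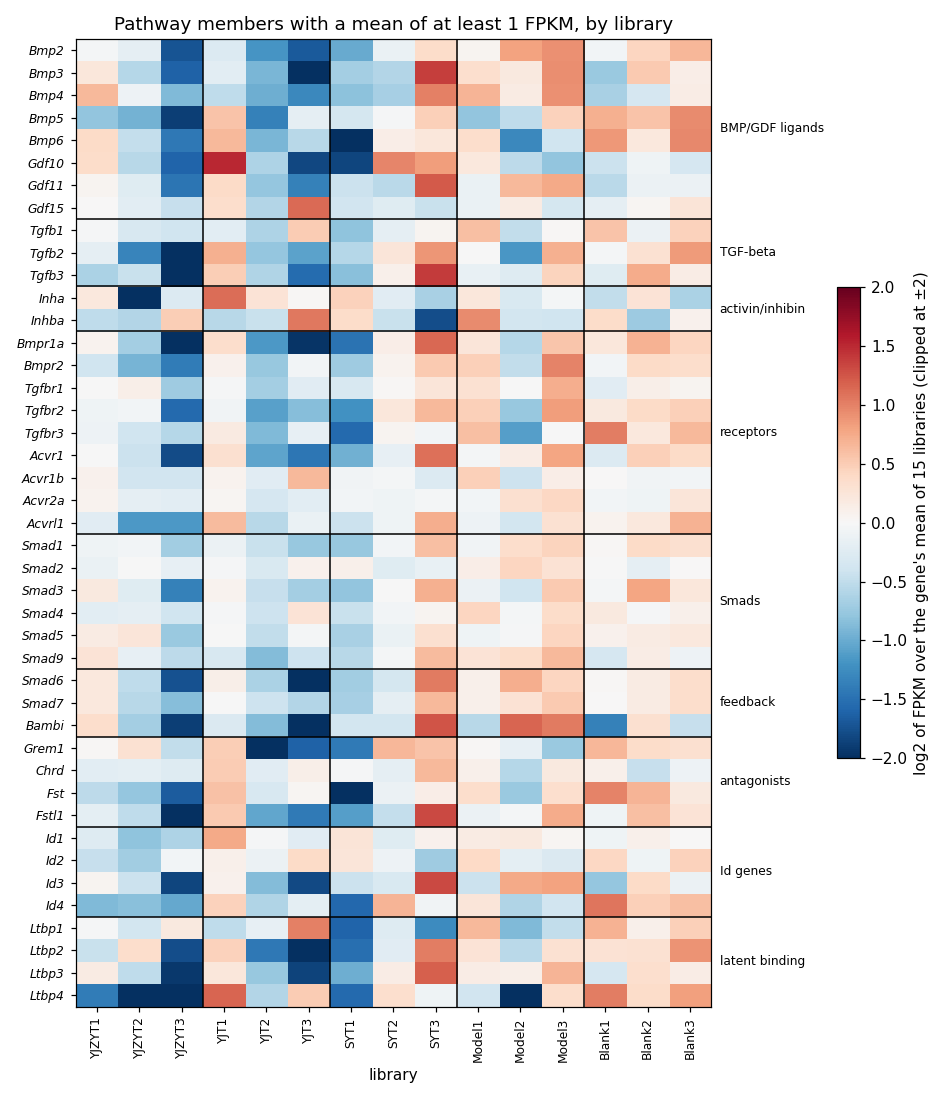
Each of the 43 members with a mean of at least 1 FPKM in each library, as log2 of its FPKM over its mean of the 15 libraries, with members by role in rows, libraries by group in columns, and colours clipped at ±2. The column of SYT replicate 3 is mostly above the mean, and the columns of YJT replicate 3 and YJZYT replicate 3 are mostly below it.

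Levels of the 43 members were set against the summed FPKM of 13 cell type marker lists over the 15 libraries, on log2(FPKM + 0.1), giving 559 relations with Benjamini-Hochberg adjustment of the permutation p-values (100000 permutations, two-sided). The libraries share their groups and their RNA pool, so these relations describe the libraries and not a mechanism. The same relations were not computed for all genes, so the counts of members that passed have no background beside them. With the osteoblast list, 36 of 43 members had a positive r, with a median of 0.58. For 20 members both Pearson's r and Spearman's rho were positive and passed at an adjusted p of 0.05, and for 1, Inhba, both were negative (r = -0.759). The count was 21 for the osteocyte list, 21 for osteoclasts, 22 for endothelial cells and 22 for monocytes and macrophages. The erythroid, neutrophil and platelet lists ran the other way. With the erythroid list both were negative and passed for 12 members (median r -0.45 over the 43) and positive for 1. With the neutrophil list they were negative for 11 (median r -0.55), and with the platelet list negative for 3 and positive for 1. The B cell list leaned positive: 29 of 43 members had a positive r (median 0.20), and for 2 both were positive and passed. The genes given next were chosen after their values were seen.

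Id3 followed the osteoblast list most closely, with Pearson's r = 0.962 and Spearman's rho = 0.932, each with a permutation p of 1e-05, the smallest that these permutations can give (adjusted p = 0.000349 for r). Without YJT replicate 3 and YJZYT replicate 3, the 2 libraries farthest from the median, r was 0.949, and with the group means removed it was 0.958. Bmp3 had r = 0.959 and rho = 0.950, with r = 0.949 without these 2 libraries. Smad6 had r = 0.948 and rho = 0.929, with r = 0.834 without them. Ltbp3 (r = 0.950, rho = 0.879) and Bambi (r = 0.931, rho = 0.904) had r of 0.877 and 0.882 without them. For these 4 genes the permutation adjusted p was 0.000349 for r and at most 0.00122 for rho. Id1, also a BMP target, had r = 0.403 (permutation p = 0.135, adjusted p = 0.221) and rho = 0.386 (permutation p = 0.156, adjusted p = 0.251), with r = 0.150 without the 2 libraries. The difference between the Id3 and Id1 relations was not tested.

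Other members followed other lists. Ltbp1 followed the megakaryocyte and platelet list (r = 0.940, permutation adjusted p = 0.000349, and rho = 0.946, adjusted p = 0.000559), and r was 0.902 without SYT replicates 1 and 3. Tgfb1, abundant in platelets, had r = 0.548 with that list (permutation p = 0.0362, adjusted p = 0.0827) and rho = 0.439 (permutation p = 0.104, adjusted p = 0.182). Tgfbr2 followed the monocyte and macrophage list (r = 0.912, permutation adjusted p = 0.000349, and rho = 0.864, adjusted p = 0.00124), and r was 0.864 without YJT replicate 2 and YJZYT replicate 3. Acvrl1, Fst and Id4 had r of 0.818, 0.846 and 0.849 with the endothelial list, and 0.838, 0.842 and 0.780 without Blank replicate 3 and SYT replicate 1. Their rho values were 0.918, 0.846 and 0.854, and all permutation adjusted p-values of these 3 genes were at most 0.00183. For Ltbp4 and the skeletal muscle list the libraries fell into separate ranges, so no pooled r is given. Within the 8 libraries at 1000 FPKM or more on that list, Ltbp4 spanned 2.45 to 8.25 FPKM with r = 0.465 (exact permutation p = 0.242) and rho = 0.476 (exact permutation p = 0.243). Within the 7 libraries under 1000 FPKM, Ltbp4 spanned 0.513 to 4.68 FPKM, with r = 0.787 (exact permutation p = 0.0312) and rho = 0.964 (exact permutation p = 0.00278), and r was 0.801 without the 2 farthest libraries. The limit of 1000 FPKM lies in the gap between the ranges of these same libraries, and these exact p-values are not adjusted. The 7 libraries are all those of YJZYT and Model and SYT replicate 1, so this relation also spans group differences.

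**Figure D3:**
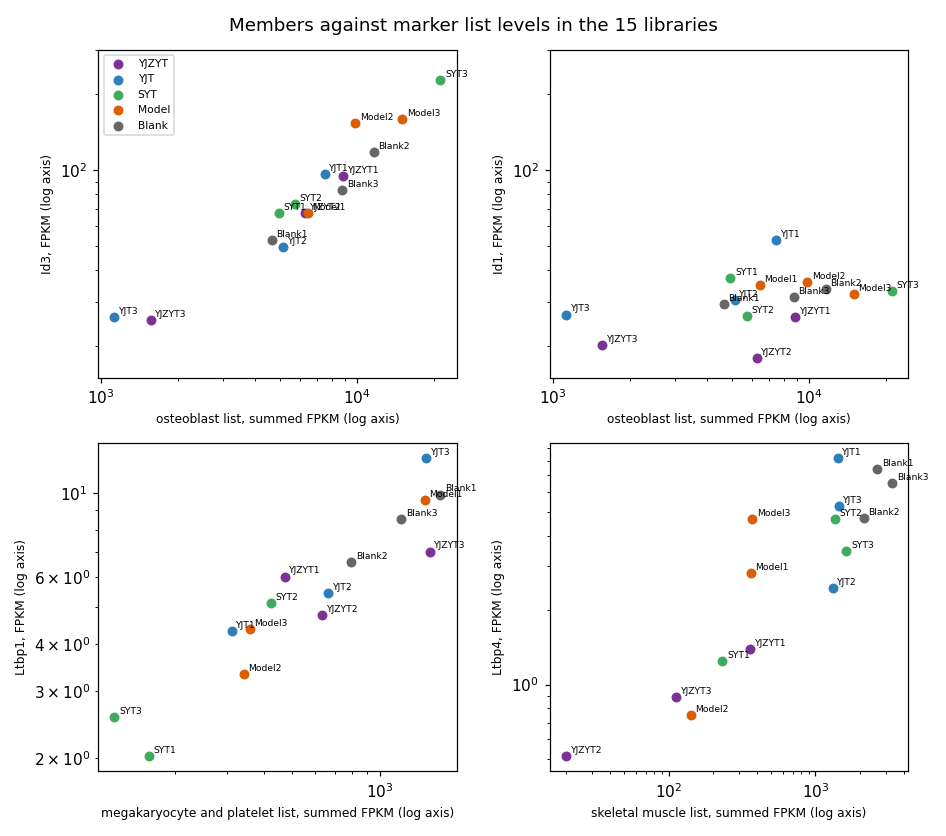
FPKM of named members (log axis) against the summed FPKM of a marker list (log axis), with 1 point per library coloured by group. Id3 lies along a line with the osteoblast list (r = 0.962), and Id1 is spread around it (r = 0.403). Ltbp1 lies along a line with the platelet list (r = 0.940), and Ltbp4 is shown against the muscle list, where the libraries fall into separate ranges.

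The first comparison asks what differs in ovariectomized rats with the osteoporosis label. Between Model and Blank, no member passed an adjusted p of 0.05 in edgeR's quasi-likelihood test, against 4 of 17657 genes (0.0227%). Fold changes were below 0 for 26 of 49 members, against 48.3% of all genes, with a median log2 fold change of -0.04 against 0.02 over all genes. The median was -0.22 without Model replicate 3 and 0.08 without Blank replicate 2. Unadjusted p was under 0.05 for 3 members (Acvr2b, Id4 and Smad2), against 8.19% of all genes. The 3 TGF-beta ligands had log2 fold changes of -0.39 to -0.21, and the 3 feedback inhibitors had 0.14 to 1.06.

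Acvr2b (ENSRNOG00000014477, chr8:128087345-128118746, plus strand, in the authors' coordinates, for which no source used here names a genome build) had 0.247, 0.207 and 0.125 FPKM in Model, against 0.393, 0.324 and 0.534 in Blank (edgeR log2 fold change -1.08, SE 0.43, adjusted p = 0.51). Smad2 had 13.2, 16.1 and 14.6 FPKM in Model, against 11.9, 10.7 and 12.1 in Blank (edgeR log2 fold change 0.35, SE 0.16, adjusted p = 0.58). Id4, an Id protein that favours osteoblasts over fat cells in mice, had 2.99, 1.66 and 1.93 FPKM in Model, against 5.27, 3.49 and 3.84 in Blank (edgeR log2 fold change -0.94, SE 0.42, adjusted p = 0.59). In each of the 3 genes the 2 groups did not overlap, but none passed the test. In TMM-scaled CPM (counts relative to the scaled library total), 7 of the 49 members (Bmp5, Bmp7, Bmpr1b, Acvr2b, Grem1, Id4 and Ltbp4) had every Model library below every Blank library, against 7.99% of all genes, and Bmp4 and Smad2 had every Model library above, against 7.69%.

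Cell type markers differed alongside, in both directions. Higher in Model were all 6 chondrocyte, all 6 osteoclast, all 5 B cell and 7 of 8 osteoblast markers. Lower were all 6 platelet and all 5 erythroid markers, and the sums of each of these lists overlapped between the groups. All 6 muscle markers were lower in Model, with summed levels of 142 to 370 FPKM in Model and 2142 to 3328 FPKM in Blank. All 5 endothelial markers were lower, at 32.8 to 44.1 FPKM in Model and 54.3 to 64.2 FPKM in Blank, and all 6 tendon and fibroblast markers were lower, at 131 to 292 FPKM in Model and 315 to 346 FPKM in Blank, with Tnmd at 0 in some libraries. All 5 fat cell markers were lower, at 32.1 to 132 FPKM in Model and 251 to 393 FPKM in Blank, with Lep at 0 in some libraries. Fabp4 made up most of these fat cell sums, at 31.1 to 119 FPKM in Model and 233 to 373 FPKM in Blank. Fabp4 and Cidec did not overlap between the groups in FPKM, while Adipoq, Plin1 and Lep did. None of these markers passed the test, and their part in the values of Ltbp4, Id4 and Acvr2b was not tested.

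SYT, YJT and YJZYT were each compared with Model, whose 3 libraries these comparisons share with each other and with the one above. Between SYT and Model, no member and no gene passed (0%, 558 genes at an unadjusted p under 0.05). Fold changes were below 0 for 20 of 49 members, against 46.8% of all genes, with a median log2 fold change of 0.09. This direction turned with the scaling: 30 members were lower with library totals as the only scaling, which moved the median of all genes to -0.22 against 0.02 with TMM factors, and 36 of 45 were lower with limma on log2(FPKM + 1). It also turned with 1 library, since 31 members were lower without SYT replicate 3 and 11 without Model replicate 3.

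Acvr2b had the smallest p, with 0.256, 0.536 and 0.461 FPKM in SYT, against 0.247, 0.207 and 0.125 in Model (edgeR log2 fold change 1.32, SE 0.43, adjusted p = 1). It was the 1 member with every SYT library above every Model library in scaled CPM, against 3.24% of all genes, and the 1 member with an unadjusted p under 0.05, against 3.16% of all genes. Chrd, a BMP trap, had 1.06, 0.958 and 1.68 FPKM in SYT, against 1.16, 0.731 and 1.24 in Model (edgeR log2 fold change 0.49, SE 0.28, adjusted p = 1). Ltbp1 had 2.02, 5.14 and 2.57 FPKM in SYT, against 9.6, 3.34 and 4.37 in Model (edgeR log2 fold change -0.60, SE 0.42, adjusted p = 1). The Chrd and Ltbp1 groups overlapped, and the Ltbp1 log2 fold change was -0.00 without Model replicate 1. The 6 platelet markers summed to 124 to 425 FPKM in SYT and 342 to 1420 FPKM in Model, all 6 lower in SYT without passing, and their part in the Ltbp1 value was not tested.

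Between YJT and Model, no member and no gene passed (0%, 1162 genes at an unadjusted p under 0.05). A fold change below 0 was seen for 32 of 49 members, against 51.8% of all genes, and the median log2 fold change was -0.19 against -0.02 over all genes. The 3 feedback inhibitors had -1.51 to -0.47, and all 6 Smads were below 0. Without YJT replicate 1 the median was -0.65, and without Model replicate 3 it was -0.05. With YJT replicate 3 and YJZYT replicate 3 left out together, 28 members were below 0.

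Bmp2 had 2.04, 1.09 and 0.768 FPKM in YJT, against 2.56, 4.3 and 4.62 in Model (edgeR log2 fold change -1.40, SE 0.47, adjusted p = 0.75). Smad9 had 0.875, 0.594 and 0.817 FPKM in YJT, against 1.31, 1.41 and 1.71 in Model (edgeR log2 fold change -0.82, SE 0.28, adjusted p = 0.75). Bmp4 had 2.11, 1.52 and 1.23 FPKM in YJT, against 4.79, 3.36 and 5.65 in Model (edgeR log2 fold change -1.33, SE 0.48, adjusted p = 0.75). These genes, 2 osteogenic ligands and a Smad of the BMP branch, were lower in every YJT library than in any Model library in scaled CPM, as was Bmp3, and 4 such members of 49 stand beside 4.92% of all genes. Unadjusted p was under 0.05 for 4 members, all lower (Bmp2, Smad9, Bmp4 and Tgfbr1), against 6.58% of all genes. All 8 osteoblast markers were lower in YJT, with sums of 1130 to 7468 FPKM in YJT and 6427 to 14989 FPKM in Model. The 5 osteocyte markers summed to 26.0 to 146 FPKM in YJT and 188 to 497 FPKM in Model. None of these markers passed, Fgf23 was at 0 in some libraries, and the part of these cells in the Bmp2, Bmp4 and Smad9 values was not tested.

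Between YJZYT and Model, no member and no gene passed (0%, 1287 genes at an unadjusted p under 0.05), yet 42 of 49 members had a fold change below 0, against 57.7% of all genes. The median log2 fold change was -0.51 against -0.07 over all genes. It was -0.44 over 48 members, with genes at 0 counts in a group set at their bound from a floor of 3 counts per library, or left out. By role, all 6 Smads, all 4 Id genes, all 3 TGF-beta ligands, all 3 activin and inhibin subunits, all 3 feedback inhibitors, 10 of 11 receptors, 6 of 10 BMP and GDF ligands, 4 of 5 secreted antagonists and follistatins and 3 of 4 latent binding proteins were below 0. Among them, Bmpr1b and Gdf5 had 0 counts in YJZYT. In Model, Bmpr1b rested on 8 counts in replicate 1 and Gdf5 on 11 counts in replicate 3. Without YJZYT replicate 1 the median was -0.70, and without Model replicate 3 it was -0.31. Without YJT replicate 3 and YJZYT replicate 3 together, 40 members were below 0.

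Bmpr2, the type II BMP receptor, had 2.43, 1.69 and 1.22 FPKM in YJZYT, against 4.47, 2.28 and 6.38 in Model (edgeR log2 fold change -1.16, SE 0.36, adjusted p = 0.64). Smad4 had 11.8, 12 and 10.3 FPKM in YJZYT, against 18.3, 13.3 and 17.4 in Model (edgeR log2 fold change -0.38, SE 0.14, adjusted p = 0.64). Ltbp4 had 1.39, 0.513 and 0.887 FPKM in YJZYT, against 2.82, 0.752 and 4.68 in Model (edgeR log2 fold change -1.41, SE 0.60, adjusted p = 0.65). In scaled CPM, every YJZYT library lay below every Model library for Smad4, Tgfb3, Nog, Id1 and Id4, and these 5 members of 49 stand beside 5.57% of all genes. Unadjusted p was under 0.05 for 3 members, all lower, against 7.29% of all genes. Without Model replicate 3 the log2 fold change was -0.75 for both Bmpr2 and Ltbp4.

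Several marker lists were also lower in YJZYT than in Model, with no marker past the test. All 8 osteoblast markers were lower, with sums of 1563 to 8846 FPKM in YJZYT and 6427 to 14989 FPKM in Model. All 6 tendon and fibroblast markers were lower, at 26.8 to 80.7 FPKM in YJZYT and 131 to 292 FPKM in Model, and all 5 endothelial markers were lower, at 23.1 to 28.4 FPKM in YJZYT and 32.8 to 44.1 FPKM in Model. All 5 erythroid markers were higher, at 48896 to 89523 FPKM in YJZYT and 21116 to 60071 FPKM in Model. Nearly all of the erythroid sum was Hba-a1, at 47942 to 87933 FPKM in YJZYT and 20841 to 59096 FPKM in Model. The part of these cells in the lower member values was not tested.

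**Figure D4:**
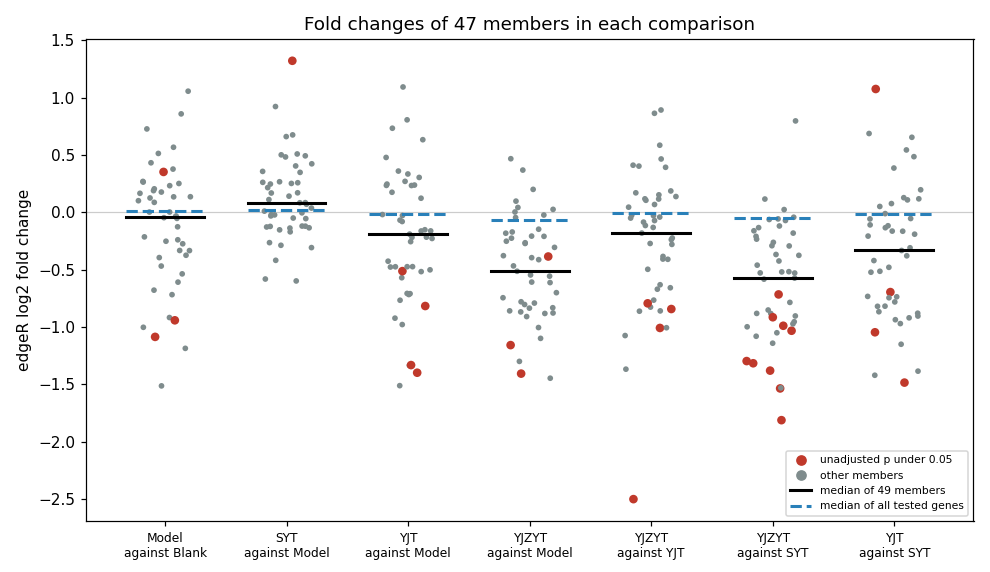
Fitted edgeR log2 fold changes (vertical axis) in the 7 comparisons, with 1 point per member, Gdf5 and Bmpr1b left out because a group is at 0 counts, black lines at the median of the 49 members and dashed lines at the median of all tested genes. In YJZYT against Model and against SYT most points lie below 0, and no point passes an adjusted p of 0.05 in edgeR.

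Comparisons between the treated groups share libraries with those above. Between YJZYT and YJT, no member and no gene passed (0%, 1128 genes at an unadjusted p under 0.05). Fold changes were below 0 for 33 of 49 members, against 50.9% of all genes, and the median was -0.18 on the log2 scale against -0.01 over all genes. The count was 20 and the median 0.15 without YJT replicate 1, so the direction rested on that library. Without YJT replicate 3 and YJZYT replicate 3 together, 31 members were below 0.

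Ltbp4 (ENSRNOG00000020871, chr1:84118046-84150084, minus strand) had the smallest p of the members, with 1.39, 0.513 and 0.887 FPKM in YJZYT, against 8.25, 2.45 and 5.24 in YJT (edgeR log2 fold change -2.50, SE 0.62, adjusted p = 0.18). Its YJZYT and YJT libraries did not overlap, and DESeq2 gave an adjusted p of 0.0027, the lowest of a range up to 0.66 over the alternatives. Id1 had 26.2, 17.9 and 20.3 FPKM in YJZYT, against 52.6, 30.6 and 26.8 in YJT (edgeR log2 fold change -0.79, SE 0.26, adjusted p = 0.39), with no overlap in FPKM but an overlap in scaled CPM. Gdf5 had 0 counts in all 3 YJZYT libraries and 47, 0 and 0 counts in YJT, at least 5.22-fold lower in YJZYT against a floor of 3 counts per library, and this rests on YJT replicate 1 alone. Unadjusted p was under 0.05 for 6 members, all lower (Ltbp4, Id1, Gdf5, Acvrl1, Bmp5 and Bmpr1b), against 6.39% of all genes. Bmpr1b, like Gdf5, lay at the floor, with 0 counts in all 3 YJZYT libraries and 12, 0 and 4 counts in YJT. In scaled CPM, 5 members (Chrd, Fst, Id2, Id4 and Ltbp4) had every YJZYT library below every YJT library, against 7.59% of all genes, and none lay above throughout, against 3.7%. The 6 muscle markers summed to 20.1 to 361 FPKM in YJZYT and 1314 to 1443 FPKM in YJT, and the 6 tendon and fibroblast markers to 26.8 to 80.7 FPKM in YJZYT and 137 to 339 FPKM in YJT. All 12 were lower in YJZYT without passing, and their part in the Ltbp4 value was not tested.

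Of the 7 comparisons, YJZYT against SYT had the most members at an unadjusted p under 0.05, although no member and no gene passed after adjustment (0%). Fold changes were below 0 for 46 of 49 members, against 54.4% of all genes, with a median log2 fold change of -0.57 against -0.04. All 11 receptors and all 6 Smads were below 0, but Bmpr1b had 0 counts in YJZYT and only 0, 8 and 8 counts in SYT. Unadjusted p was under 0.05 for 11 members (22.4%), all lower, against 9.1% of all genes: Acvr2b, Bmp5, Ltbp4, Acvrl1, Bmpr2, Id1, Gdf5, Tgfb3, Tgfb2, Bmpr1b and Id4. In scaled CPM, 10 members (Bmp5, Gdf5, Inhbb, Bmpr2, Acvr2b, Acvrl1, Smad4, Chrd, Id1 and Ltbp4) had every YJZYT library below every SYT library, against 6.56% of all genes. Without SYT replicate 3 the median was -0.20, and without SYT replicate 1 it was -0.90. Without YJT replicate 3 and YJZYT replicate 3 together, 43 members were below 0.

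Acvr2b had 0.17, 0.16 and 0.196 FPKM in YJZYT, against 0.256, 0.536 and 0.461 in SYT (edgeR log2 fold change -1.30, SE 0.43, adjusted p = 0.42). Bmp5 had 0.902, 0.804 and 0.421 FPKM in YJZYT, against 1.21, 1.54 and 2.17 in SYT (edgeR log2 fold change -1.31, SE 0.44, adjusted p = 0.42). Ltbp4 had 1.39, 0.513 and 0.887 FPKM in YJZYT, against 1.25, 4.65 and 3.46 in SYT (edgeR log2 fold change -1.81, SE 0.61, adjusted p = 0.42). Acvr2b did not overlap between the 2 groups and passed in DESeq2 with an adjusted p of 0.0462, the lowest of a range up to 0.99 over the alternatives, while its levels were under 1 FPKM in all libraries. Gdf5, at 0 counts in YJZYT and 8, 22 and 28 counts in SYT, was at least 6.44-fold lower in YJZYT against the same floor. The 6 tendon and fibroblast markers summed to 26.8 to 80.7 FPKM in YJZYT and 153 to 350 FPKM in SYT. The 8 osteoblast markers summed to 1563 to 8846 FPKM in YJZYT and 4937 to 21134 FPKM in SYT. All 14 were lower in YJZYT without passing the test, and the part of these cells in the lower member values was not tested.

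**Figure D5:**
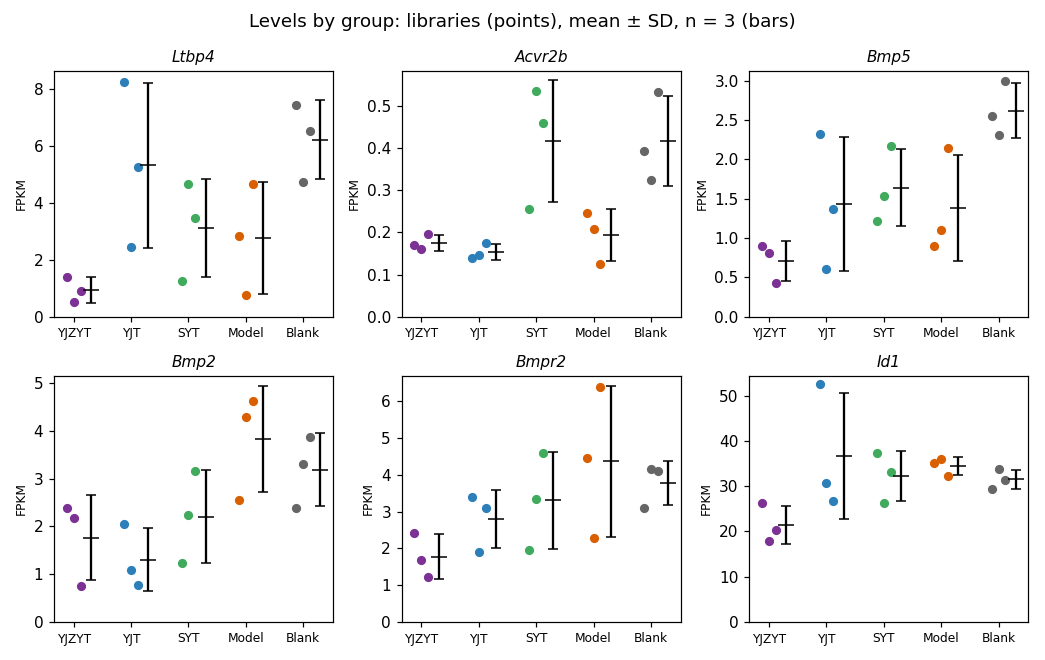
FPKM of named members in every library by group, with 1 point per library and bars for the mean ± SD (n = 3). Ltbp4 lies lower in YJZYT than in YJT, and Acvr2b lies lower in YJZYT than in SYT, with no overlap in either.

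Between YJT and SYT, no member and no gene passed (0%, 538 genes at an unadjusted p under 0.05). Members below 0 numbered 37 of 49, against 51.4% of all genes, with a median log2 fold change of -0.33 against -0.01, which was -0.81 without YJT replicate 1 and -0.07 without SYT replicate 3. With YJT replicate 3 and YJZYT replicate 3 left out, 33 members were below 0. Acvr2b had 0.14, 0.146 and 0.176 FPKM in YJT, against 0.256, 0.536 and 0.461 in SYT (edgeR log2 fold change -1.48, SE 0.43, adjusted p = 0.93). Ltbp1 had 4.33, 5.47 and 12.4 FPKM in YJT, against 2.02, 5.14 and 2.57 in SYT (edgeR log2 fold change 1.08, SE 0.42, adjusted p = 0.93). Smad9 had 0.875, 0.594 and 0.817 FPKM in YJT, against 0.743, 1.06 and 1.68 in SYT (edgeR log2 fold change -0.69, SE 0.28, adjusted p = 0.93). Acvr2b and Smad9 were the 2 members with every YJT library below every SYT library in scaled CPM, against 3.14% of all genes, and 4 members (the 3 named and Bmp4) had an unadjusted p under 0.05, against 3.05%. The platelet markers, which Ltbp1 followed across libraries, summed to 311 to 1438 FPKM in YJT and 124 to 425 FPKM in SYT. Without YJT replicate 3 and YJZYT replicate 3 the Ltbp1 log2 fold change was 0.61, and the part of platelets in it was not tested. All 8 osteoblast markers were lower, with sums of 1130 to 7468 FPKM in YJT and 4937 to 21134 FPKM in SYT. All 6 osteoclast markers were lower, at 548 to 2408 FPKM in YJT and 1229 to 4249.98 FPKM in SYT. Of 5 osteocyte markers 4 were lower, at 26.0 to 146 FPKM in YJT and 99.7 to 565 FPKM in SYT. No marker of these 3 lists passed, and the part of these cells in the lower member values was not tested.

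Across all 5 groups together, no member passed edgeR's test for any difference, against 0.0227% of all genes. Acvr2b, Ltbp4, Bmp5 and Id4 had an unadjusted p under 0.05, against 7.71% of all genes, with edgeR adjusted p-values of 0.43 for Acvr2b and 0.44 for Ltbp4.

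Further genes of the pathway, beyond the 49, were counted in the same fits. Of 64 listed, 60 were in the table and 55 were tested, and none passed in any of the 7 comparisons. Fold changes were below 0 for 43 of 55 in YJZYT against Model, 30 in YJT against Model, 15 in SYT against Model and 34 in Model against Blank. Their median log2 fold changes in those comparisons were -0.40, -0.04, 0.17 and -0.16. In YJZYT against Model, Atoh8, a BMP-induced transcription factor, had the smallest p (edgeR log2 fold change -1.31, SE 0.36, adjusted p = 0.64), followed by Nedd4l, a ubiquitin ligase that acts on Smad2 and Smad3 (edgeR log2 fold change 0.91, SE 0.38, adjusted p = 0.65). In YJT against Model, the smallest p belonged to Itgb6, an integrin subunit that activates latent TGF-beta (edgeR log2 fold change 2.45, SE 0.79, adjusted p = 0.75), and Hjv, a BMP co-receptor of muscle and liver (edgeR log2 fold change 2.71, SE 1.02, adjusted p = 0.75). In SYT against Model they belonged to Rgma, another BMP co-receptor (edgeR log2 fold change 2.05, SE 0.81, adjusted p = 1), and Hjv (edgeR log2 fold change 2.18, SE 1.0, adjusted p = 1). In Model against Blank they belonged to Itgb6 (edgeR log2 fold change -2.72, SE 0.80, adjusted p = 0.36) and Mstn, the muscle ligand myostatin (edgeR log2 fold change -4.31, SE 1.43, adjusted p = 0.41). Itgb6 and Mstn were both under 1 FPKM in every library. Itgb6 had 0.157, 0.0169 and 0.139 FPKM in Model, against 0.655, 0.723 and 0.672 in Blank. Mstn had 0.054, 0 and 0.0367 FPKM in Model, against 0.437, 0.507 and 0.955 in Blank. The muscle marker sums, at 1314 to 1443 FPKM in YJT, 232 to 1625 FPKM in SYT, 142 to 370 FPKM in Model and 2142 to 3328 FPKM in Blank, moved with Mstn and Hjv, and their part in those values was not tested. Below 0 were also 36 of 55 in YJZYT against YJT, 41 in YJZYT against SYT and 36 in YJT against SYT.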

How the data were processed

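Poly(A) RNA from rat bone was sequenced from dUTP libraries with UMI adapters on a NovaSeq, per the labels' protocols. Per the submitters' processing notes, StringTie 1.3.4d, HISAT2 2.0.4, UMI-tools and cutadapt 1.9 were used, as were edgeR and DESeq2. No source used here gives the genome build, annotation, counting tool or strand setting. The authors deposited raw read counts per gene and FPKM values for the same 15 libraries, per the file headers. Counts were tested with edgeR 4.0.16 (R 4.3.3; TMM factors, filterByExpr, robust quasi-likelihood fit of all 15 libraries, two-sided tests, Benjamini-Hochberg adjustment over 17657 genes, threshold 0.05), after tests on simulated data. The filter left out 4811 of 22468 genes. SE is the absolute log2 fold change divided by the square root of F. The deposited FPKM are not TMM-scaled. They gave the levels, shares, marker sums and, on log2(FPKM + 0.1), the correlations. A marker sum is weighted towards the most abundant genes of its list. Alternatives used DESeq2 1.42.0 and limma 3.58.1 and left out each library in turn.

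The members and all gene lists were chosen with earlier results of these data known. Genes named with values in every library were, in each role, the 2 with the highest mean FPKM and the 1 with the widest ratio of highest to lowest library. In each comparison they were the 3 with the smallest unadjusted p, and for further pathway genes the 2 with the smallest p in each comparison with Model or of Model with Blank. The markers Col1a2 and Pecam1, and the pathway genes Gdf1, Gdf2, Tdgf1 and Cer1, were not used here because the tables' symbols did not match them. 1 further erythroid marker is not reported here.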

Additional observations from a re-analysis of the deposited data

Results flagged for a closer look

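On the TMM-scaled log2 CPM scale, in 5 members every library of 1 treated group lay above the Model mean and every library of another treated group lay below it. Against the arithmetic mean of Model in FPKM this did not hold for Ltbp4, Fst, Bmp5 and Acvrl1, and against that in TMM-scaled CPM it did not hold for Fst. These differences between treated groups were tested directly in edgeR, and none passed after adjustment over all genes. The share of all genes that lie on opposite sides of the Model mean in this way is not given here, so the count of 5 has no background beside it. For Ltbp4 the log2 fold change against Model was -1.41 in YJZYT and 1.09 in YJT, a difference of -2.50 (SE 0.62, edgeR adjusted p = 0.18). For Fst the values were -0.83 in YJZYT and 0.24 in YJT, a difference of -1.07 (edgeR adjusted p = 0.82). For Bmp5 they were -0.83 in YJZYT and 0.48 in SYT, a difference of -1.31 (edgeR adjusted p = 0.42). For Acvrl1 they were -0.61 in YJZYT and 0.42 in SYT, a difference of -1.03 (edgeR adjusted p = 0.43). For Acvr2b they were -0.16 in YJT and 1.32 in SYT, a difference of -1.48 (edgeR adjusted p = 0.93).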

How the results depend on the processing

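The count of members past the threshold was 0 in edgeR in all 7 comparisons and in the test of all 5 groups, and it stayed 0 under all alternatives run (other scalings and filters, limma on FPKM, fits of the 6 libraries compared, and each library left out in turn, range 0 to 0) except DESeq2. DESeq2 called 1 member in YJZYT against YJT (Ltbp4), 1 in YJZYT against SYT (Acvr2b) and 2 among the 5 groups (Acvr2b and Ltbp4). The limma fits left out Bmp7, Gdf5, Bmpr1b and Acvr2b as too low. The filter at a mean of at least 1 FPKM left out these genes and also Inhbb and Nog. No call was possible for the genes left out in those settings. Over all genes DESeq2 called 300 in Model against Blank, 28 in SYT against Model, 97 in YJT against Model, 63 in YJZYT against Model, 398 in YJZYT against YJT, 280 in YJZYT against SYT, 8 in YJT against SYT and 616 among the 5 groups, where edgeR called 4, 0, 0, 0, 0, 0, 0 and 4. limma on log2(FPKM + 1) called 41 genes in Model against Blank, 101 in YJZYT against YJT and 119 among the 5 groups, while limma on log2(FPKM + 0.1) called 2, 3 and 12 in these comparisons. The cause of these gaps was not tested. No named log2 fold change changed sign, although that of Gdf5 in YJZYT against YJT was 0 without YJT replicate 1. Members below 0 ranged from 35 to 46 in YJZYT against Model, from 37 to 47 in YJZYT against SYT and from 11 to 37 in SYT against Model.

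The groups share replicate numbers, and no label says whether the numbers pair the libraries. Over 30 same-numbered pairs of libraries the correlation of deviations from the group means had a median of -0.018 (-0.42 to 0.40). The median was 0.012 over 60 pairs with different numbers. These medians cannot exclude a pairing, because deviations within a group cancel out and tie the same-numbered correlations to the others. With the replicate number as a block, 0 members and 0 genes were called in every comparison. At a biological coefficient of variation of 42.7% with 3 libraries a group, a missed threshold does not show that a member was equal between groups. Genes such as Gdf5, Bmpr1b and Acvr2b, under 1 FPKM, carry the fewest counts. The fold change of Gdf5 was imprecise, with an SE of 1.89 in Model against Blank. That of Acvr2b was not, with an SE of 0.43 in YJT against SYT, where the median SE of the members was 0.48.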
